A study of Mus musculus with 7 samples.

Results

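Hand1, Hand2, Alx1, Alx4, Pax9 and Pax1, transcription factor genes that pattern the limb bud from its anterior (thumb) side to its posterior (little finger) side or mark one side of it, were examined in the apical ectodermal ridge (AER) and the limb surface ectoderm of the mouse forelimb. Members were taken as the non-control probes that carry one of these gene names on the array. They comprised 6 of 36373 gene names and 7 of 55681 probes: Pax9 had 2 probes and each of the other genes had 1. The AER, a raised strip of epithelium along the bud's tip, was microdissected from C57/Bl6 embryos at embryonic day 11.5 and profiled on 3 arrays. Ectoderm, described by the submitters as surface ectoderm of the posterior limb from embryos of the same strain and age, was profiled on 4 arrays and served as the control. Per the labels each array held RNA pooled from 2 to 3 mice, so the p-values rest on the spread between the arrays' RNA samples. The ridge was not divided along its anterior-posterior length and no ectoderm was labelled anterior, so sides of the bud are not compared. The ridge along its length is set against posterior ectoderm, so tissue and anterior-posterior position cannot be told apart.

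HAND proteins are basic helix-loop-helix factors that bind DNA as dimers, and HAND2 acts in posterior limb mesenchyme, where it is needed to switch on Sonic hedgehog (Shh) and opposes the anterior repressor GLI3. ALX1 and ALX4 are paired-type homeodomain factors of mesenchyme, and ALX4 keeps Shh off the anterior side. PAX1 and PAX9 are closely related paired-domain factors of the sclerotome and of limb mesenchyme, PAX1 near the future shoulder girdle and PAX9 on the anterior side. All of these roles were described mainly in mesenchyme, the tissue beneath the epithelium that was dissected here.

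Signals are given as log2 of the processed signal over the 75th percentile of the same array, so that 0 is that percentile and a difference of 1 is a doubling. On AER arrays 48.7% to 55.2% of spots were well above background, and in ectoderm 48.9% to 51.1% were. Saturation affected 0 spots. Known AER genes set the labels apart, with 14 of 16 higher and 0 lower in AER (Fgf8, the main ridge growth factor, by 7.01). All 20 pan-epithelial genes tested were above background on every array. Of these, 17 were higher and 0 lower in AER, with mean levels of 2.16 to 2.42 in AER, against 0.30 to 0.82 in ectoderm. The ectoderm arrays also carried transcripts of other layers. Of 24 limb mesenchyme genes, 2 were higher and 15 lower in AER, and their mean level ranged over 1.62 to 1.92 for the ridge pools, against 3.26 to 3.73 for the ectoderm pools. Of 8 muscle progenitor genes, 0 were higher and 7 lower in AER, with mean levels of -3.31 to -1.87 in AER and 1.10 to 1.65 in ectoderm. On the AER arrays 19 to 23 of the mesenchyme and 3 to 7 of the muscle genes were above background, against 24 and 7 to 8 on the ectoderm arrays. Osr2, a limb mesenchyme regulator, was not well above background on any AER array, and Myod1, the muscle regulator, was so on 1 of 3. The mesenchyme genes Prrx1, Tbx5, Pdgfra and Col1a2 averaged 2.86, 3.63, 3.03 and 6.51 in AER and were above background on 3 of 3 AER arrays. Lhx2 and Lhx9, LIM homeobox genes of the same list, were the 2 higher in AER. Ectoderm replicates 2 and 4 stood apart in position-related genes. Their files bear the same number, and they were the closest pair across genes (r = 0.995), and whether they hold 1 RNA or 2 pools was not tested. With the 2 arrays averaged and counted as 1, Hand2 differed by -1.66 (adjusted p = 0.0172) and Alx1 by -2.19 (adjusted p = 0.0085). The 7 anterior limb genes had a mean of 1.86 on replicate 2 and 1.86 on replicate 4, against 0.54 on replicate 1 and 0.51 on replicate 3. The 14 posterior limb and Hedgehog response genes had means of 0.99 and 0.93 on replicates 2 and 4, against 1.67 and 2.42 on replicates 1 and 3. Ectoderm replicate 3 also stood apart in ridge genes. The known AER genes had a mean of 0.38 on it, against -0.95, -0.60 and -0.61 on replicates 1, 2 and 4, and Fgf8 stood at 1.99, against -2.54, -1.65 and -1.64. The part of ridge transcripts in the posterior gene levels of that array was not tested.

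**Figure D1:**
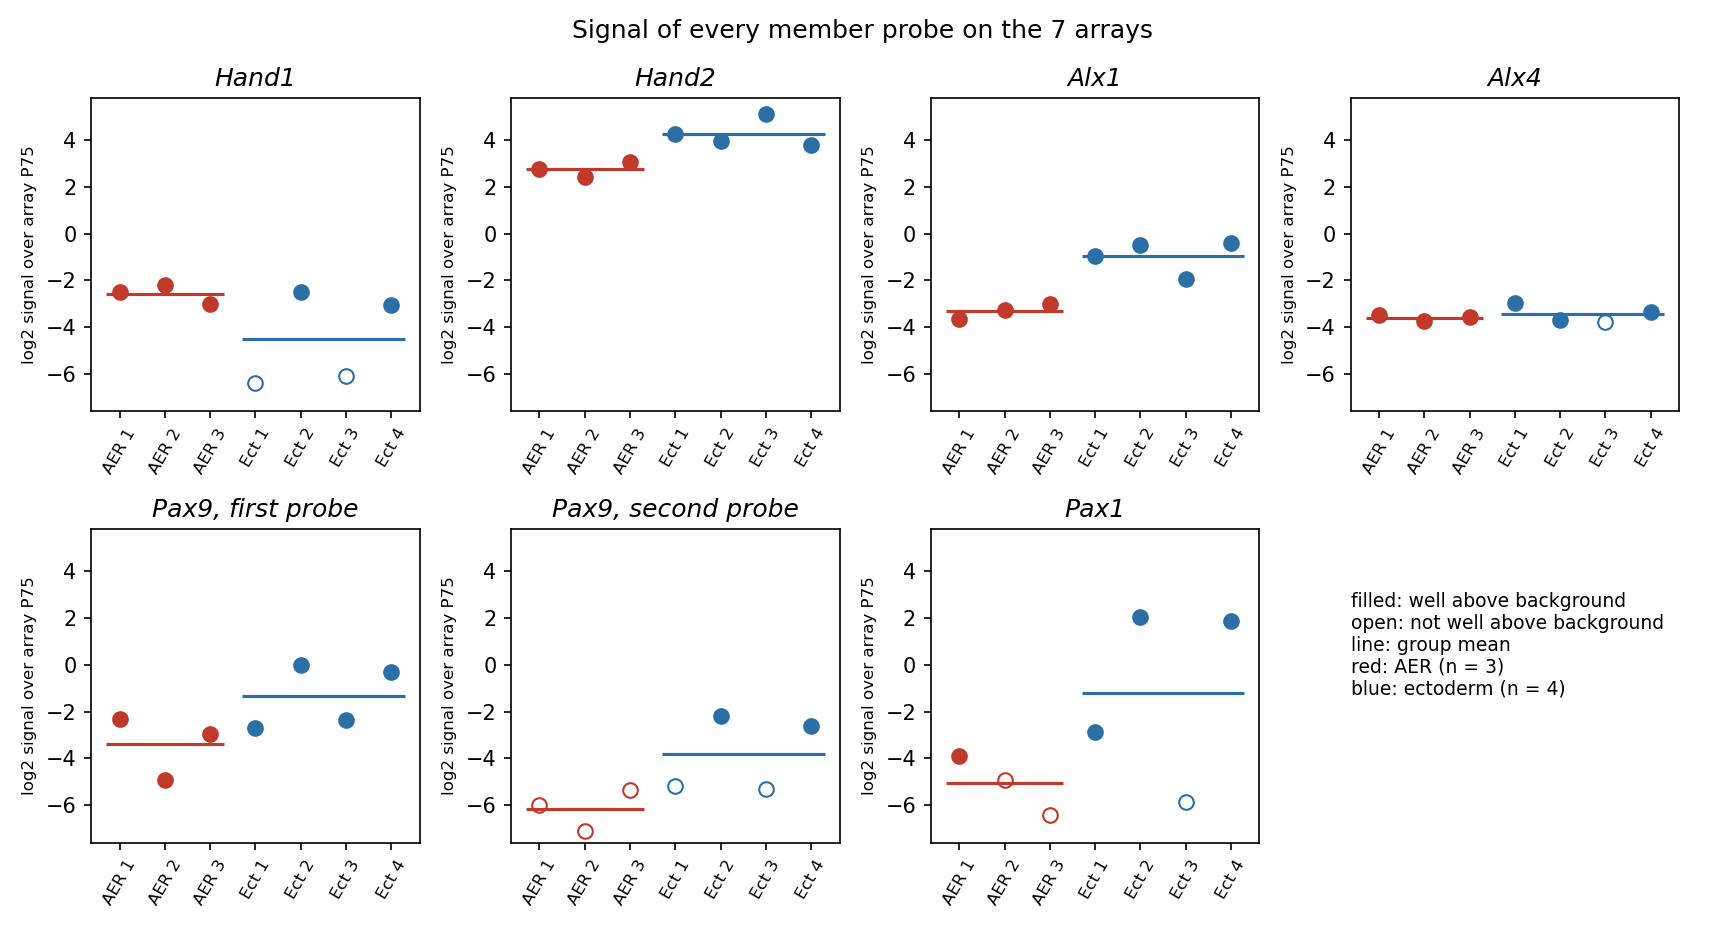
Normalized signal of the 7 member probes on each array, as log2 over the 75th percentile (P75) of the array, with AER arrays in red on the left and ectoderm (Ect) arrays in blue on the right. Filled circles were well above background, open circles were not, and lines are group means. Hand2 and Alx1 lie lower on all 3 AER arrays than on all 4 ectoderm arrays, and Pax1 spans from -5.85 to 2.04 among the ectoderm arrays.

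Of the 6 genes, Hand2 and Alx1 were lower in AER, and the other 4 did not pass the test (limma's moderated test, Benjamini-Hochberg adjusted over 20826 genes). Over all genes tested, 15.5% passed, 7.08% higher and 8.45% lower in AER. For 2 of the 6 genes every AER array lay below every ectoderm array, as for 17.3% of all genes, and for 0 of 6 above, as for 12.6%. Groups without overlap in either direction made up 29.9% of all genes. Over the kept probes 14.8% passed, and 7.79% passed as lower in AER, against 2 of the 6 kept member probes. Measured over arrays alone, the exact permutation test gave p = 0.0571 for both Hand2 and Alx1 (two-sided), which is the smallest p that 3 against 4 arrays can give. All 6 genes passed the filter on dim probes. Of the 7 probes, the second Pax9 probe did not.

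**Figure D2:**
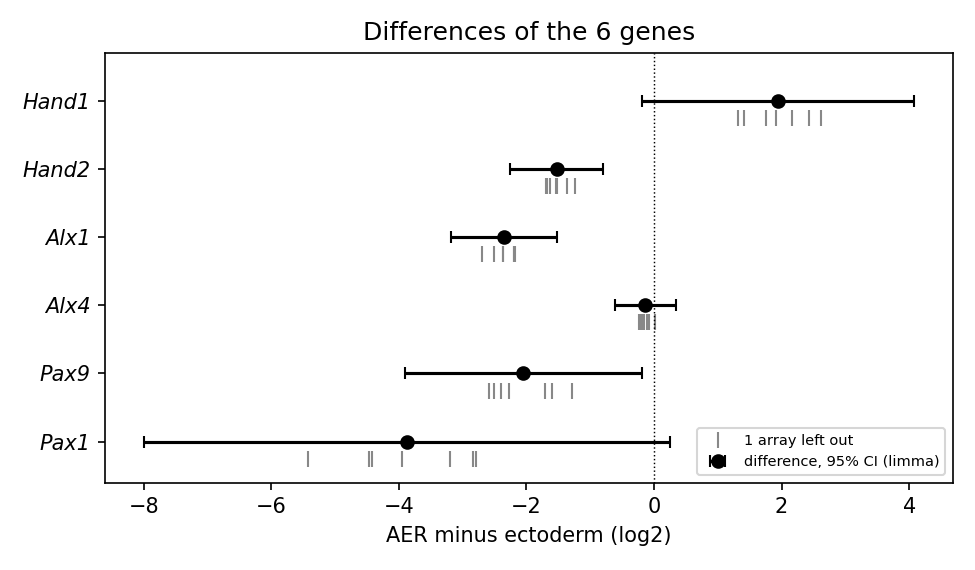
AER minus ectoderm difference (log2) of each gene with its 95% confidence interval from the limma fit (3 AER and 4 ectoderm arrays), and grey ticks for the same difference with 1 array left out. The intervals of Hand2, Alx1 and Pax9 lie below 0, while that of Pax9 belongs to an adjusted p of 0.131, and the widest interval is that of Pax1.

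Hand2 was read by 1 probe on chromosome 8 from 59803220 to 59803279 (mm9 build, plus strand). Its processed signal was 2654.4, 3575 and 3778.5 units on the AER arrays, against 9057.5, 8042.4, 10271.2 and 5587.7 units on the ectoderm arrays. Normalized, the levels were 2.75, 2.43 and 3.07 on the AER arrays, against 4.26, 3.95, 5.12 and 3.78 on the ectoderm arrays. Every AER array lay below every ectoderm array, and ectoderm replicate 3 was the highest. The mean was 2.75 ± 0.32 in AER and 4.28 ± 0.59 in ectoderm (SD, n = 3 and 4 arrays), a difference of -1.53 (SE 0.32), which is 2.88-fold lower in the ridge (95% CI 1.74 to 4.77) with limma's adjusted p = 0.0129. In AER, Hand2 was lower but above background on 3 of 3 arrays. Without AER replicate 2 the difference was -1.37 with adjusted p = 0.0535. With the slide row as a block it was -1.38 (adjusted p = 0.0409), and within rows 1 and 2 it was -1.69 and -1.03. In each row a tissue is represented by a single array, so these within-row values, here and for the other genes, carry no test. Without ectoderm replicates 2 and 4 it was -1.94 (adjusted p = 0.0135). The limb mesenchyme list moved the same way, and its part in the Hand2 difference was not tested. In these bulk samples, fewer cells of a type and less RNA per cell cannot be told apart. Nor can tissue and position, as the ectoderm was described as posterior and the ridge was undivided.

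Hand1, the relative of Hand2 best known from the heart and placenta, was dim. Its probe on chromosome 11 from 57642342 to 57642401 (mm9, minus strand) gave 70.1, 145.1 and 56.2 units on the AER arrays, against 5.7, 92.7, 4.3 and 49.2 units on the ectoderm arrays. It was well above background on 3 of 3 AER arrays, and on ectoderm replicates 2 and 4 but not on 1 and 3. The normalized mean was -2.56 ± 0.41 in AER and -4.50 ± 2.02 in ectoderm (SD, n = 3 and 4), and the groups overlapped. The difference of 1.94 (SE 0.94, 95% CI -0.19 to 4.08) did not pass (adjusted p = 0.203), and it was 0.64 after normexp background correction, which compresses dim signals. Leaving out ectoderm replicates 2 and 4, a choice made after the data were seen, removes the ectoderm arrays on which Hand1 was above background. The remaining ectoderm arrays were at background, and Hand1 was then higher in AER by at least 2.87-fold (fitted difference 3.68, limma's adjusted p = 0.000906). Since the choice of arrays fixes this outcome, it is no test of Hand1. The AER levels fell within 0.82 of each other.

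Promoter sequences were available for 3 of the 6 members (Hand2, Pax9 and Pax1, GRCm38.p6 build, all on the plus strand), and all 3 are shown. Each runs from 250 bases before the gene's start to 50 bases after it, 5′ to 3′, at chr8:57320733-57321032 for Hand2, chr12:56695221-56695520 for Pax9 and chr2:147364744-147365043 for Pax1. Capitals mark exact matches, on either strand, to any of 3 motifs: the GLI site GACCACCCA, the E-box CATCTG and the homeodomain core TAATTA.
Hand2: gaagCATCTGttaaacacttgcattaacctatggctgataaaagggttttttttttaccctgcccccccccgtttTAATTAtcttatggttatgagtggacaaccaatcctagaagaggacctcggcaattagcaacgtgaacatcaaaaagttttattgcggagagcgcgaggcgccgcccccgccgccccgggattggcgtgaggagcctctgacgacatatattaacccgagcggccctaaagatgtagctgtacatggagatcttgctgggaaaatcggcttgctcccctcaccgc
Pax9: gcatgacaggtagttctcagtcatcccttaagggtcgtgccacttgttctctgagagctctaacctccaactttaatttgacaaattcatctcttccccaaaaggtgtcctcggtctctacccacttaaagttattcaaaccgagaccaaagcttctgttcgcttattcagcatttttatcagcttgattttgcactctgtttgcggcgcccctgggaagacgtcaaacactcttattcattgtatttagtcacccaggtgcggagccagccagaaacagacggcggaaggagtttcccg
Pax1: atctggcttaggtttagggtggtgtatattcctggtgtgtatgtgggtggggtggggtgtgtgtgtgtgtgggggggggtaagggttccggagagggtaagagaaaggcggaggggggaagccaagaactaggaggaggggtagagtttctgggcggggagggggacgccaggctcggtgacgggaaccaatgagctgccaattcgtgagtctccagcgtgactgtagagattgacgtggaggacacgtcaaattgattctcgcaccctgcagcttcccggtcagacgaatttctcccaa
The Hand2 window held 1 match to CATCTG, starting at position -246 from the gene's start, and 1 to TAATTA, starting at -175. The Pax9 and Pax1 windows held 0 matches to any of the motifs. Of all 32851 promoter windows available, 17.2% held CATCTG, 5.29% held TAATTA and 0.253% held GACCACCCA. The windows were 50.3% (Hand2), 47.0% (Pax9) and 57.3% (Pax1) G or C, against a median of 52.7% over all windows. A match is a run of letters and was not tested as a binding site.

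Alx1, needed for the mesenchyme of the face, had the smallest adjusted p of the 6 genes. Its probe lay on chromosome 10 from 102471172 to 102471231 (mm9, minus strand). It gave 31.6, 68.2 and 56.2 units on the AER arrays, against 243.4, 374.3, 76.7 and 303.9 units on the ectoderm arrays. Normalized, these were -3.64, -3.28 and -3.01 on the AER arrays, against -0.96, -0.47, -1.95 and -0.42 on the ectoderm arrays. All 7 values were well above background, the groups did not overlap, and ectoderm replicate 3 came closest to the ridge. The mean was -3.31 ± 0.32 in AER and -0.95 ± 0.71 in ectoderm (SD, n = 3 and 4), a difference of -2.36 (SE 0.36), which is 5.13-fold lower in the ridge (95% CI 2.88 to 9.11) with limma's adjusted p = 0.00279. The AER signals were dim, near those of Alx4 given below, so the size of the fold depends on the background correction. After normexp, which compresses dim signals, the difference was -1.46 (limma's adjusted p = 0.00115). With the slide row as a block it was -2.61 (adjusted p = 0.00281), and within rows 1 and 2 it was -2.51 and -2.72. Leaving out any 1 array kept adjusted p between 0.000186 and 0.0162, and leaving out ectoderm replicates 2 and 4 gave -1.85 (adjusted p = 0.0208). As for Hand2, mesenchyme genes moved the same way on these arrays and their part was not tested.

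Alx4, the anterior repressor of Shh, was near background in both tissues and did not separate them. Its probe on chromosome 2 from 93518001 to 93518060 (mm9, plus strand) gave 35, 50.3 and 38.3 units on the AER arrays, against 60, 39.7, 21.8 and 39.6 units on the ectoderm arrays. It was above background on all of these except ectoderm replicate 3. The normalized mean was -3.59 ± 0.11 in AER and -3.46 ± 0.36 in ectoderm (SD, n = 3 and 4). The difference of -0.14 (SE 0.21) had a 95% CI of -0.62 to 0.35 (adjusted p = 0.698), and its sign turned when background correction and normalization were both changed (0.01) and without ectoderm replicate 1 (0.02). A signal more than 1.53-fold lower in AER lies outside that interval. The signals are near background, so the interval sets no bound on the transcript level. It also depends on the normalization: with arrays centred on pan-epithelial genes, which moved the median of all genes to -1.84 by construction, the Alx4 difference was -1.89.

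Pax1 separated the ectoderm arrays from each other more than it separated the tissues. Its probe, on chromosome 2 from 147200673 to 147200732 (mm9, plus strand), was printed 10 times on each array. The averaged signal was 26.7, 22.1 and 5.3 units on the AER arrays, against 65.1, 2137.5, 5.1 and 1503.4 units on the ectoderm arrays. Ectoderm replicates 2 and 4 were bright, replicate 1 was dim, and replicate 3 was at background like AER replicates 2 and 3. Normalized, Pax1 stood at -3.89, -4.90 and -6.42 on the AER arrays, against -2.86, 2.04, -5.85 and 1.89 on the ectoderm arrays. Ectoderm replicate 2 was 29.9-fold above replicate 1 and at least 63.8-fold above replicate 3, and replicate 4 was 26.9-fold and at least 57.4-fold above them. Single spots ranged from 2053 to 2257 units on ectoderm replicate 2 and from 1462 to 1587 on replicate 4, while those of replicate 1 lay between 58.1 and 85.3 and those of replicate 3 between 4.16 and 16.9. These ranges, which include spots left out of the averages, did not overlap between any of the ectoderm arrays.

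**Figure D3:**
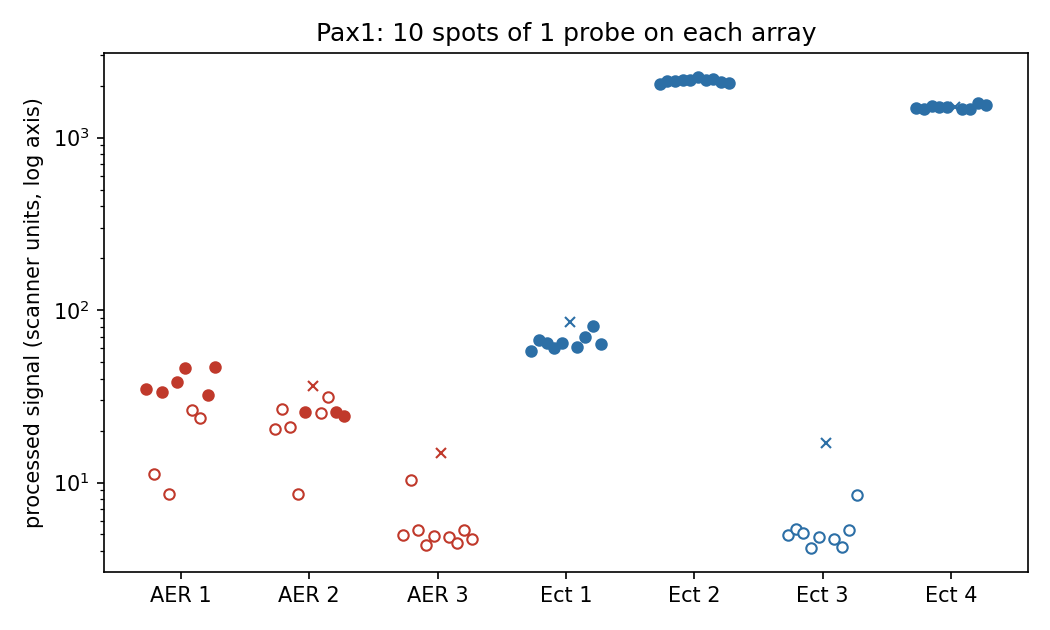
Processed signal of the 10 spots of the Pax1 probe on each array, on a log axis, with AER arrays in red on the left and ectoderm (Ect) arrays in blue on the right. Filled circles were well above background, open circles were not, and crosses are spots called uneven or outlying, which were left out. The spots of ectoderm replicates 2 and 4 lie between 1462 and 2257 units, and those of the other 5 arrays between 4.16 and 85.3.

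Among 20826 genes, Pax1 had the largest SD over the 4 ectoderm arrays (3.85, against a median of 0.19 for all genes), and the third largest after normexp (2.31). Its mean was -5.07 ± 1.28 in AER and -1.20 ± 3.85 in ectoderm (SD, n = 3 and 4). The difference of -3.87 (SE 1.81, 95% CI -8.00 to 0.25) did not pass (adjusted p = 0.191), and the groups overlapped. The result turned on single arrays. Without ectoderm replicate 3 the difference was -5.42 with adjusted p = 0.0268, and without replicates 2 and 4 it was -0.71 with adjusted p = 0.731. Within slide row 2, which holds AER replicates 2 and 3 and ectoderm replicate 4, it was -7.55, and within row 1 it was -1.66.

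Pax9 also differed between the ectoderm arrays, at a smaller amplitude than Pax1. Its first probe, on chromosome 12 from 57811230 to 57811289 (mm9, plus strand), gave 79.6, 22.0 and 58.5 units on the AER arrays, against 73.1, 520.6, 57.2 and 331.1 units on the ectoderm arrays. Ectoderm replicates 2 and 4 were again the high arrays, 6.49-fold and 5.28-fold above replicate 1, and replicates 1 and 3 lay among the AER arrays. The normalized mean was -3.39 ± 1.36 in AER and -1.34 ± 1.39 in ectoderm (SD, n = 3 and 4). The difference of -2.05 (SE 0.81, 95% CI -3.91 to -0.19) did not pass (adjusted p = 0.131), and it was -0.86 (adjusted p = 0.55) without ectoderm replicates 2 and 4. Within slide rows 1 and 2 it was -0.62 and -3.63.

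The second Pax9 probe, from 57812158 to 57812217 on the same chromosome, was dimmer and was likewise highest on ectoderm replicates 2 and 4. It gave 6.2, 4.9 and 10.9 units on the AER arrays, against 13.1, 114.4, 7.4 and 67.0 units on the ectoderm arrays. It was above background only on ectoderm replicates 2 and 4, that is on 0 of 3 AER and 2 of 4 ectoderm arrays. The fitted difference of -2.33 did not pass (adjusted p = 0.197 in the fit of all 55681 probes), and the ectoderm mean behind it includes 2 arrays not above background. Over the 7 arrays Pax9 (first probe) and Pax1 correlated at r = 0.82, Alx1 and Pax1 at 0.79, and Alx1 and Pax9 at 0.75, while Hand1 and Hand2 ran opposite at r = -0.80. These are descriptions over 7 arrays that share the split between tissues.

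Genes of the Hedgehog and posterior programme, in which Hand2 acts, moved both ways. Of 14 tested, 2 were higher in AER and 2 lower, with a median difference of 0.49, against -0.08 for all genes. Hoxd13 and Hoxa13, which pattern the hand plate, were higher by 2.96 (adjusted p = 0.00242) and 2.60 (adjusted p = 0.0392). Hoxa13 lost its call when any 1 array other than ectoderm replicate 3 was left out, with adjusted p = 0.0793 to 0.104. Both were highest, among ectoderm arrays, on replicate 3, where Hoxa13 stood at 2.54. Hhip, a Hedgehog-binding feedback inhibitor, was lower by a difference of -3.24 (adjusted p = 0.000689), and it was above background on 1 of 3 AER arrays. Grem1, a secreted BMP antagonist that links Shh to ridge FGFs, was lower at -3.18 (adjusted p = 0.00384).

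Shh, the posterior signal itself, did not pass (adjusted p = 0.084) and differed between the ectoderm arrays. It stood at -2.07, -1.42 and 0.10 on the AER arrays, against -5.92, -5.87, -0.96 and -6.25 on the ectoderm arrays. It was above background on all AER arrays and, in ectoderm, on replicate 3, the array with the highest Hand2 level, with Pax1 at background and with the highest known AER gene mean of the ectoderm arrays. Fgf4, a ridge growth factor, was likewise higher there, at -1.79, against -6.17, -5.17 and -4.94 on ectoderm replicates 1, 2 and 4. Those 3 values were not well above background, so the size of the Fgf4 gap is not measured. The Hedgehog receptor and target Ptch1 stood at 0.87, 0.52 and 0.99 on the AER arrays, against 0.74, -0.90, 1.18 and -0.62 on the ectoderm arrays. It was lowest on ectoderm replicates 2 and 4, the arrays with the brightest Pax1. Gli1, another Hedgehog target, was at 3.13, 3.11 and 2.28 on the AER arrays, against 3.44, 2.34, 3.31 and 2.29 on the ectoderm arrays. Among ectoderm arrays, replicates 2 and 4 were again the low ones.

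Of 7 anterior limb genes, 1 was higher in AER and 0 lower, with a median difference of 0.12. Irx3 and Irx5, Iroquois homeobox genes of anterior and proximal limb mesenchyme, did not pass. Like Pax1 they were highest on ectoderm replicates 2 and 4, but from AER replicate 1 to 3 they rose while Pax1 fell. Irx5 and Pax1 were each above background on only 1 of 3 AER arrays, so their course within AER is not measured. Irx3 stood at -2.34, -0.96 and -0.64 on the AER arrays, against -2.15, 2.13, -1.46 and 2.37 on the ectoderm arrays. Irx5 stood at -5.38, -4.73 and -3.67 on the AER arrays, against -3.37, -0.66, -3.70 and -0.72 on the ectoderm arrays.

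**Figure D4:**
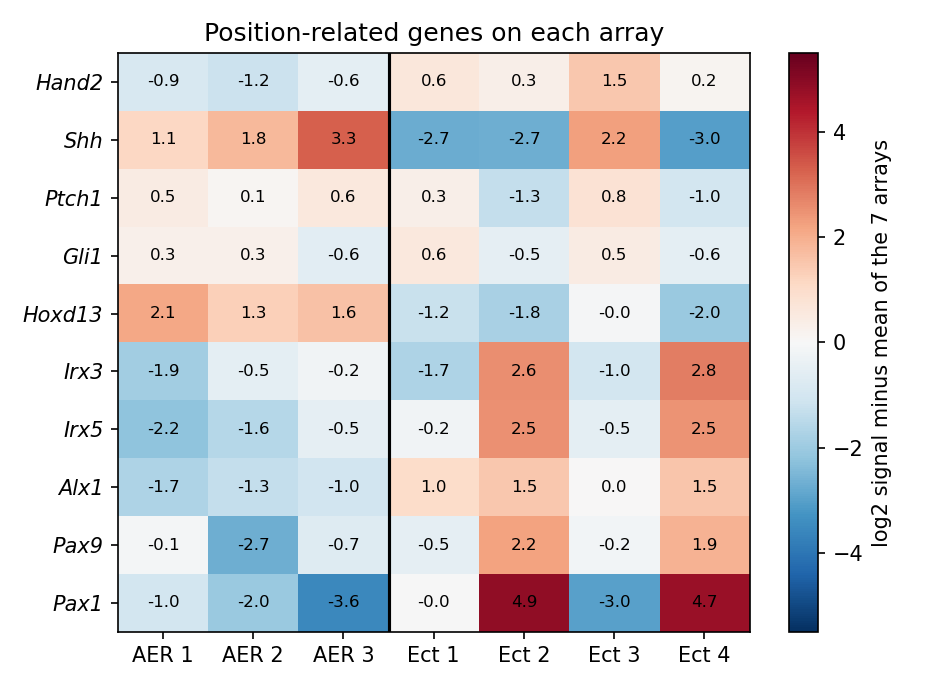
Signal of 10 genes on each array as log2 difference from that gene's mean over the 7 arrays, with AER arrays left of the line and ectoderm (Ect) arrays right of it. Genes besides the members were picked after their values were seen. Among ectoderm arrays Pax1, Pax9, Irx3 and Irx5 are highest on replicates 2 and 4, and Hand2, Shh and Hoxd13 are highest on replicate 3. Shh was not well above background on ectoderm replicates 1, 2 and 4.

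Among 9 genes for dimer partners of HAND proteins, TWIST proteins and ID inhibitors, 1 was higher and 4 lower in AER, with a median of -0.15. The E-protein genes Tcf12 and Tcf4, whose products pair with HAND factors, were lower by differences of -1.18 (adjusted p = 0.00101) and -0.96 (adjusted p = 0.00349). Twist2, a HAND-related mesenchymal factor, was lower at -2.62 (adjusted p = 0.00014). Id2 was lower at -0.70 (adjusted p = 0.0248) and Id3 higher by 0.77 (adjusted p = 0.0362, and -0.99 when arrays were centred on pan-epithelial genes). Both of these encode inhibitors of E-proteins. Their calls were lost when certain single arrays were left out (adjusted p up to 0.0774 for Id2 and 0.0938 for Id3).

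Relatives of the members by family were compared in the same way. Of 7 other Pax genes, 2 passed the filter on dim probes, Pax3 and Pax7, which mark muscle progenitors. Pax3 averaged -3.06 ± 0.22 in AER and 0.89 ± 0.42 in ectoderm (SD, n = 3 and 4), a difference of -3.94 (adjusted p = 2.96e-05). Pax7 was lower at -1.72 (adjusted p = 0.0198, and 0.0543 or 0.0551 without ectoderm replicate 2 or 4). It was dim, above background on 1 of 3 AER and 3 of 4 ectoderm arrays, so the size of its difference is uncertain. Pax3 was highest on ectoderm replicate 1, and stood at 0.58, 0.83 and 0.64 on replicates 2, 3 and 4. Of 7 other paired-type homeobox genes tested, 0 were higher and 4 lower in AER, with a median of -1.60. Shox2, a proximal limb factor, was lower at -6.40 (adjusted p = 6.83e-06), and Prrx1, a marker of limb mesenchyme, at -1.60 (adjusted p = 0.000571).

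The genes whose levels ran most like each member over the 7 arrays were also listed, as a description by Pearson's r. For Pax1 they were Zap70 (r = 0.986), Prkar1b (0.983) and Slc2a8 (0.980), and for Pax9 Porcn (0.988), Ccdc106 (0.984) and Bace2 (0.983). For Alx1 they were Sln (0.999), Plagl1 (0.996) and Stx11 (0.995), of which Sln, a regulator of the muscle calcium pump, was lower in AER by a difference of -2.76 (adjusted p = 0.00194). For Hand2 they were Htr6, Cul2 and Pgap1 (r = 0.982, 0.982 and 0.979), and for Hand1 Bcl6, Amph and Gas7 (0.991, 0.981 and 0.979). For Alx4, near background, they were Camp, Slc2a6 and BC018473 (0.967, 0.921 and 0.917). Among markers of other cell types, 0 of 7 erythroid and 0 of 8 macrophage genes passed, 1 of 10 endothelial genes was lower, and 2 of 8 neural, Schwann and melanoblast genes were higher in AER. Of 11 sclerotome, cartilage and tendon genes, 0 were higher and 4 lower in AER, and their mean stood at 0.56, 0.63, 0.75 and 0.60 on ectoderm replicates 1 to 4.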

How the data were processed

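RNA of 7 samples, pooled from mice (75 ng labelled per array, per the labels' protocols) was hybridised to 1-colour Agilent arrays. The processed signal in the deposited scanner files is an intensity, background-subtracted and detrended by Feature Extraction 10.7.3.1 without scaling between arrays, per the file headers. Mean spot and local background intensity values and spot flags, in other columns, are also deposited. The deposited value table is log2, made with limma per the submitters' processing notes. Tested on the files, normexp (offset 50) with quantile normalization over all spots gave it to within 0.000108.

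Control spots and spots called uneven or outlying were left out, spots of 1 probe were averaged as log2, and each array's 75th percentile was subtracted. A probe was well above background where at least 50% of its spots were, and was kept when this held on at least 3 arrays (28280 probes, 50.8%). Each gene took its brightest kept probe. Names came from RefSeq by accession (26294 probes), symbol (2049) or older symbol (355). The other 26983 probes kept the name in the file, so not every name counted as a gene is a RefSeq gene. The test was limma's moderated one, AER minus ectoderm (version 3.58.1 in R 4.3.3, lmFit then eBayes, two-sided, no covariate), adjusted over all genes at 0.05. The prior gave 3.54 degrees of freedom beside 5 residual ones. "At least" folds set dim arrays to the dimmest signal called above background there. Fits within a slide row hold 1 array of one tissue, so their values are given without a test. The fit was tested on simulated data. Python 3.11.15 with pandas 2.3.3 did the reading, and matplotlib 3.10.9 the figures. The number of arrays limits the precision. Replicate numbers in the titles were not used as pairs, since the labels do not say that a number marks a shared pool. Deviations of same-numbered arrays correlated at -0.03, 0.19 and 0.13 for numbers 1 to 3, which does not settle whether they are pairs.

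The members and lists were chosen with earlier results of these data known. Named genes are all members, any gene of the posterior, anterior and Hand partner lists, up to 4 genes with the smallest p of other lists, and the 3 genes most correlated with each member. Some genes of these lists are counted but not reported by name here. Fgf8, Fgf4, the mesenchyme and muscle genes named with the array description and the choice of genes plotted by array were picked with their values known. Other settings tried were the background correction, normalization, filters, probes, blocks, array weights and left-out arrays. Leaving out ectoderm replicates 2 and 4 was added after the data were seen.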

Additional observations from a re-analysis of the deposited data

Results flagged for a closer look

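Among 59 genes, probes and list means checked over the 4 ectoderm arrays, 4 had 1 array whose gap to the others exceeded Dixon's critical value, and chance alone gives about 1 in 20. Shh stood at -0.96 on ectoderm replicate 3, while the other ectoderm arrays were at background. Tbx3, a T-box gene of the limb margins, stood at 3.75 on ectoderm replicate 1, below the other ectoderm arrays at 4.46 to 4.61. The mean of the other paired-type homeobox genes was 1.11 on ectoderm replicate 3, and that of the neural, Schwann and melanoblast markers was -2.07 on ectoderm replicate 1. Of the 7 member probes, 0 were among them.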

How the results depend on the processing

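Hand2 and Alx1 kept their direction under all 25 alternatives, which are not 25 separate checks. Each gene has 1 probe with 1 spot, so the settings for filters, flagged spots and probe means left both differences unchanged. The authors' values repeat normexp with quantile normalization. Outside the slide rows, the call lost was that of Hand2 without AER replicate 2. Within a row 1 tissue has a single array, so the fits there carry no call: Hand2 stood at -1.69 in row 1 and -1.03 in row 2, Alx1 at -2.51 in row 1, and Pax9 at -3.63 and Pax1 at -7.55 in row 2. With ectoderm replicates 2 and 4 averaged, 2248 genes passed, and Hoxa13 (adjusted p = 0.0924), Pax7 (0.0547), Id2 (0.0667) and Id3 (0.0856) lost their calls. With 1 array left out, differences ranged from -1.69 to -1.25 for Hand2, -2.69 to -2.18 for Alx1, -2.59 to -1.29 for Pax9, -5.42 to -2.79 for Pax1, 1.32 to 2.61 for Hand1 and -0.24 to 0.02 for Alx4. Alx4 turned to 0.0101 with normexp and quantile normalization, 0.0101 with the authors' values and 0.0226 without ectoderm replicate 1. Hand1 passed with the replicate number as a block (2.43, 3 AER and 3 ectoderm arrays, adjusted p = 0.0329) and without ectoderm replicates 2 and 4 (3.68). The second of these is no test, as it drops the ectoderm arrays on which Hand1 was above background. With the replicate block 11.8% of genes passed. Not every array deviated most like its own number. AER replicates 2 and 3 and ectoderm replicate 2 did, while AER replicate 1 and ectoderm replicates 1 and 3 did not. Pax9 passed with the file-name number as a block (-1.70, adjusted p = 0.0148), and Pax1 without ectoderm replicate 3 (-5.42). Without 1 array 1 to 3 of the 6 genes passed, and in the row 1 fit 0 did. Pax1 gave no value when probes had to be above background on all arrays of a group.

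Over all genes 3235 passed (4179 probes). The row fits gave 652 (893 probes) in row 1 and 1474 (1988 probes) in row 2, as counts without a replicate check, and 1560 (1987 probes) passed without ectoderm replicates 2 and 4. With 1 array left out the counts ran from 2171 to 3236 genes and from 2806 to 4145 probes. Centring on pan-epithelial genes moved the median of all genes to -1.84 by construction and passed 20036 genes (27146 probes), 5 of the 6 members among them: Alx4 at -1.89, Pax9 at -3.81 and Pax1 at -5.63, besides Hand2 and Alx1, while Id3 turned to -0.99. The share of higher calls was 45.6%, and 57.4% with the percentile taken over only the probes bright on every array, and 0.958% under this centring. Hand1, Alx4, the second Pax9 probe and the AER signals of Alx1 lie near background, which limits their precision.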
